A study of Mus with 16 samples.

Results

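The comparison described here set tumours that had received both perturbations of the study, loss of B cells and an antibody against PD-L1, against tumours that had received neither. Each tumour was a B16 melanoma, a transplantable mouse melanoma line, grown subcutaneously in C57BL/6 hosts. The 8 libraries of the comparison, of 16 in the series, came from 4 B cell-depleted mice given anti-PD-L1 and 4 wild-type (WT) mice left untreated. They are called treated depleted and untreated WT tumours here and carry the names BKO_PDL1 and WT_NO_Tx in the figures. All genes with enough counts were members of the comparison, 19340 of the 38087 in the table. The study's methods and labels give female mice of 6 to 8 weeks, tumours that had grown for 7 days before treatment, 3 doses at intervals of 3 days and collection 3 days after the last dose. The labels call the mice B cell-depleted while the columns of the table say BKO, and the sources used here do not state for these samples whether a knockout or a depleting antibody was used. No label names a control antibody for untreated mice. The design text of the series also names 3M-052, injected into tumours, as an alternative to a control, and no sample label says which tumours received it.

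PD-L1, encoded by Cd274, is a ligand that restrains T cells through the receptor PD-1, and it is displayed by tumour cells and by myeloid cells after exposure to interferon. B cells present antigen, make antibody and cytokines, and can gather with T cells in tumours. An antibody against PD-L1 frees T cells that are already present, and interferon gamma from such cells induces antigen presentation genes and interferon-inducible GTPases in the cells around them.

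Depth was 12.5 to 31.7 M counts in treated depleted and 23.1 to 33.4 M in untreated WT libraries. The treated depleted library A had the lowest depth of the series and stood apart from its group on the second principal component, at -46.7, where the other treated depleted libraries lay between -9.5 and 9.76 and the untreated WT libraries between 9.82 and 27.2. Every treated depleted library thus lay below every untreated WT one on that component, which held 13.6% of the variance. The 2-sided exact permutation test gave p = 0.0286, the smallest that 70 splits allow, without allowance for the several library measures compared. Libraries correlated across genes on log2 CPM, the counts of a gene scaled to the size of its library, with a median r of 0.985 between treated depleted and untreated WT tumours (16 pairs, 0.969 to 0.989), against 0.977 within treated depleted (6 pairs) and 0.987 within untreated WT tumours (6 pairs). Genes are not independent replicates in these values. Gene lengths in the count table are those of whole gene spans. The sources used here do not say how reads were counted, so a read in a span shared by 2 genes may be listed for both. RNA of a whole tumour cannot tell fewer cells of a type from less RNA per cell.

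The label of B cell loss was checked with Igkc, the constant part of the immunoglobulin kappa light chain, which plasma cells and B cells make. Igkc (chromosome 6, 70726435 to 70726757, mm10) had 0, 0, 0 and 0 counts in treated depleted libraries A to D, against 5, 2, 31 and 1 counts in untreated WT libraries A to D. Every untreated WT library held at least 1 read and no treated depleted library held any. The 0 counts allow at most 0.0308 CPM over the treated depleted group (3 counts), against 0.347 CPM over the untreated WT group, so Igkc was at least 11.3-fold lower. The 2-sided exact permutation test gave p = 0.0286, the smallest that 70 splits allow, and Igkc was 1 of 26 B cell and plasma cell genes compared in this way, so it did not stay under 0.05 when the number of genes was allowed for. Cr2 and Prdm1 gave the same p in the other direction, with 46 and 99 counts in treated depleted libraries, against 21 and 58 in untreated WT libraries. Without untreated WT library C, which held most of the reads, the limit was 2.91-fold.

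Ighm, Ms4a1 and Cr2, other genes of the B cell lineage, were read at low levels in both groups. Ighm (IgM heavy chain) had 26 counts in treated depleted and 97 in untreated WT libraries, most of the WT reads again being in library C, and Ms4a1 (CD20) had 4 in each group. Cr2, a complement receptor of mature B cells and follicular dendritic cells, lay the other way, at 0.553, 0.444, 0.50 and 0.420 CPM in treated depleted libraries, against 0.229, 0.214, 0.137 and 0.190 CPM in untreated WT libraries. Its groups did not overlap (log2 change 1.26, SE 0.33), and 13.6% of its span is shared with a second gene model. Bank1, Fcrla and Cd72, also listed as B cell genes, had 1893, 2448 and 4068 counts in the treated depleted libraries, against 1900, 2570 and 4839 in the untreated WT libraries. These genes were far more abundant than Ms4a1 in both groups, and their sums carried the B cell list, which was at 88.0 to 93.9 CPM in treated depleted and 80.5 to 98.5 CPM in untreated WT tumours. Of the 9 tested genes of that list, none passed the test.

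No gene separated treated depleted from untreated WT tumours past the test. None of 19340 genes was called at an adjusted p under 0.05 (0.0%, edgeR quasi-likelihood test over all 16 libraries, Benjamini-Hochberg), and the lowest adjusted p was 0.922. At an unadjusted p under 0.05 there were 923 genes (4.77%), against 967 that a threshold of 0.05 would give if no gene differed. DESeq2 and limma-voom called 0 genes each, with 1082 (5.6%) and 863 (4.46%) at an unadjusted p under 0.05, and a fit of the 8 libraries alone called 0, with 1695 (9.14%). The lowest adjusted p was 0.0553 with DESeq2. A fit with the GC slope of the libraries (defined with the interaction) and a fit of the log2 values normalized by the authors called 1 gene each, Cst13 and Serpina1b. They had 2042 (10.6%) and 707 genes (3.75%) at an unadjusted p under 0.05. The share at that p was thus above the threshold with DESeq2, the 8 libraries alone and the GC slope, and below it in the other fits named here. The median log2 change was -0.0048 and the median size of a change without its sign was 0.15.

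The size of change that the comparison could bound depended on the level of a gene. The median standard error (SE) of a log2 change was 0.227, and the 95% interval lay within 2-fold of no change in 14788 genes (76.5%) and within 1.5-fold in 8413 (43.5%). The share within 2-fold was 97.8% among the 2319 genes of at least 100 CPM and 96.1% among the 8677 between 10 and 100 CPM. It was 68.5% among the 5224 genes between 1 and 10 CPM and 19.5% among the 3120 below 1 CPM. Most listed T cell, cytotoxic and NK cell genes had too few counts to be tested and have no interval (8 of 20 and 4 of 16 were tested). Nearly all genes of at least 10 CPM were thus bounded to 2-fold, while changes over 2-fold could not be bounded for most genes below 1 CPM.

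The genes with an unadjusted p under 0.05 differed in level by direction. Of the 923, 595 were higher (3.08% of all tested) with a median of 2.05 CPM and a median log2 change of 0.86, and 328 were lower (1.7%) with a median of 30.1 CPM and a median log2 change of -0.38. Pseudogenes made up 29.3% of the lower and 4.37% of the higher ones, against 11.9% of all genes tested. The 4 treated depleted and 4 untreated WT libraries did not overlap in 1096 genes (5.67%). If the groups did not differ, a share of 0.0286 would be expected, which is the smallest exact permutation p that 70 splits allow. The share seen was above it, and genes are not independent of each other.

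**Figure D1:**
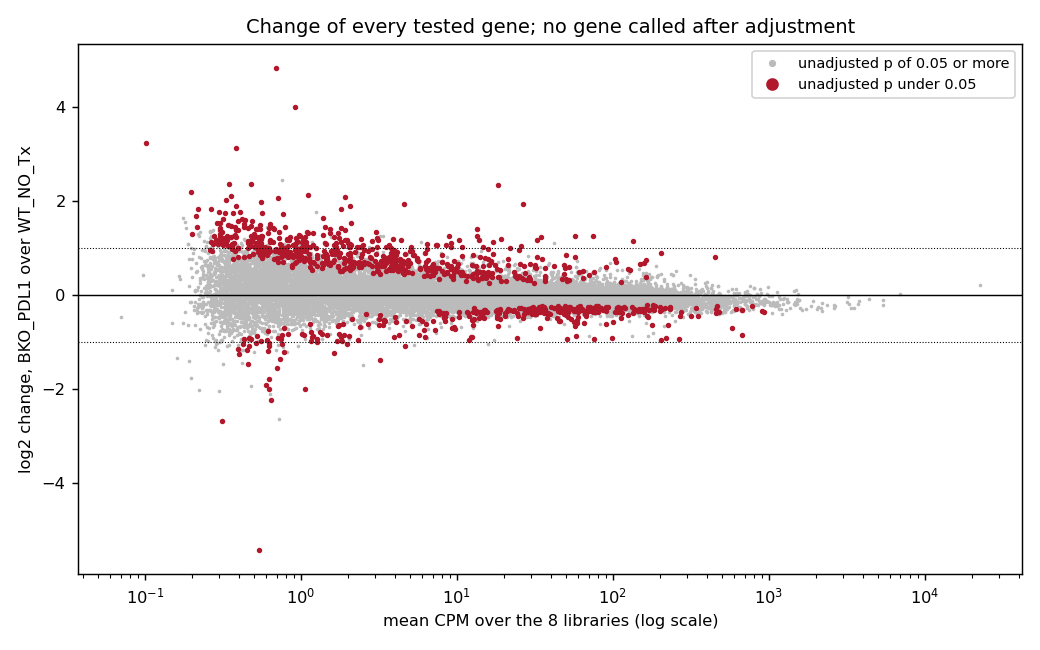
Log2 change of treated depleted (BKO_PDL1) over untreated WT (WT_NO_Tx) tumours against mean CPM over the 8 libraries (log axis), with 1 point for each of 19340 tested genes. Points with an unadjusted p under 0.05 are red, dotted lines mark 2-fold, and the cloud narrows with level around a median of -0.0048.

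The 15 protein-coding genes that follow were among the 8 in each direction with the lowest unadjusted p among genes of at least 1 CPM, and none passed the test (adjusted p 0.9997 for each). Igfbp3, a secreted protein that binds insulin-like growth factors, came first among the higher ones. Igfbp3 (chromosome 11, 7206086 to 7213923) was at 123, 145, 142 and 114 CPM in treated depleted libraries A to D, against 76.2, 80.8, 95.5 and 68.1 CPM in untreated WT libraries A to D. All 4 treated depleted libraries lay above all 4 untreated WT ones, and the log2 change was 0.71 (SE 0.17, 95% interval 0.34 to 1.08). Ptprb, the receptor phosphatase of blood vessel endothelium known as VE-PTP, was at 4.66, 6.72, 6.27 and 5.0 CPM against 2.60, 4.24, 3.02 and 3.83 CPM in untreated WT libraries. The groups did not overlap here either, and the log2 change was 0.73 (SE 0.21). Mid1, a ubiquitin ligase bound to microtubules, was at 20.5, 37.6, 23.7 and 24.7 CPM against 17.9, 20.4, 10.2 and 14.5 CPM in untreated WT libraries, with the lowest treated depleted library just above the highest untreated WT one (log2 change 0.76, SE 0.22).

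Ctse, the aspartic protease cathepsin E, had the largest change of the 8, and it varied most among the treated mice. It was at 1.34, 14.9, 8.35 and 4.50 CPM in treated depleted libraries, against 2.26, 1.67, 1.83 and 1.99 CPM in untreated WT libraries. Library A of the treated depleted group lay below every untreated WT library, and the log2 change was 1.93 (SE 0.50). In the log2 values normalized by the authors its difference was -1.19. Myo3a, a myosin of sensory hair cells in the ear, had 720, 609, 606 and 375 CPM, against 355, 302, 363 and 295 CPM in untreated WT libraries (log2 change 0.81, SE 0.20). Its span of 390750 bases includes introns, and in the authors' values the difference was -0.36. Morc1 and Unc45b were near 1 CPM, and their log2 changes were 1.16 and 1.32, though Morc1 was at 0.00 in the authors' values. Insl3, a hormone of the insulin family, lies wholly within Jak3, the kinase of cytokine receptors on lymphocytes, so its log2 change of 0.82 cannot be assigned to it alone.

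Mcm5, a subunit of the helicase that opens DNA for replication, was at 163, 239, 255 and 262 CPM in treated depleted libraries, against 321, 292, 298 and 341 CPM in untreated WT libraries. Library A was the lowest and the groups did not overlap (log2 change -0.45, SE 0.14). Mis18a, which prepares centromeres for new histones, was at 7.34, 11.8, 11.3 and 12.1 CPM against 17.2, 16, 13.8 and 13.9 CPM in untreated WT libraries (log2 change -0.51, SE 0.16). Fam64a, a mitotic regulator also called Pimreg, was at 50.1, 53.5, 57.0 and 54.2 CPM against 70.6, 74.7, 61.4 and 62.0 CPM in untreated WT libraries (log2 change -0.32, SE 0.10). In each of these genes every treated depleted library lay below every untreated WT one. They were picked for a low p, which favours such separation, and 5.67% of all genes tested did not overlap.

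The other 4 lower genes described had different functions. Fosl2, a component of the transcription factor AP-1, was at 39.5, 37.2, 57.9 and 46.3 CPM against 62.2, 69.2, 53.9 and 84.7 CPM in untreated WT libraries, and the groups overlapped (log2 change -0.58, SE 0.18). Slc1a1, a transporter of glutamate and cysteine, had a log2 change of -0.40 (SE 0.12), but 0.50 in the authors' values, and Aldoart2, a testis aldolase whose sequence is close to that of Aldoa, one of -0.63 (SE 0.16). Pxt1, at 0.862 CPM in treated depleted and 1.69 CPM in untreated WT tumours, had a log2 change of -0.93 (SE 0.29) and shares 35.6% of its span with Gm16191.

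**Figure D2:**
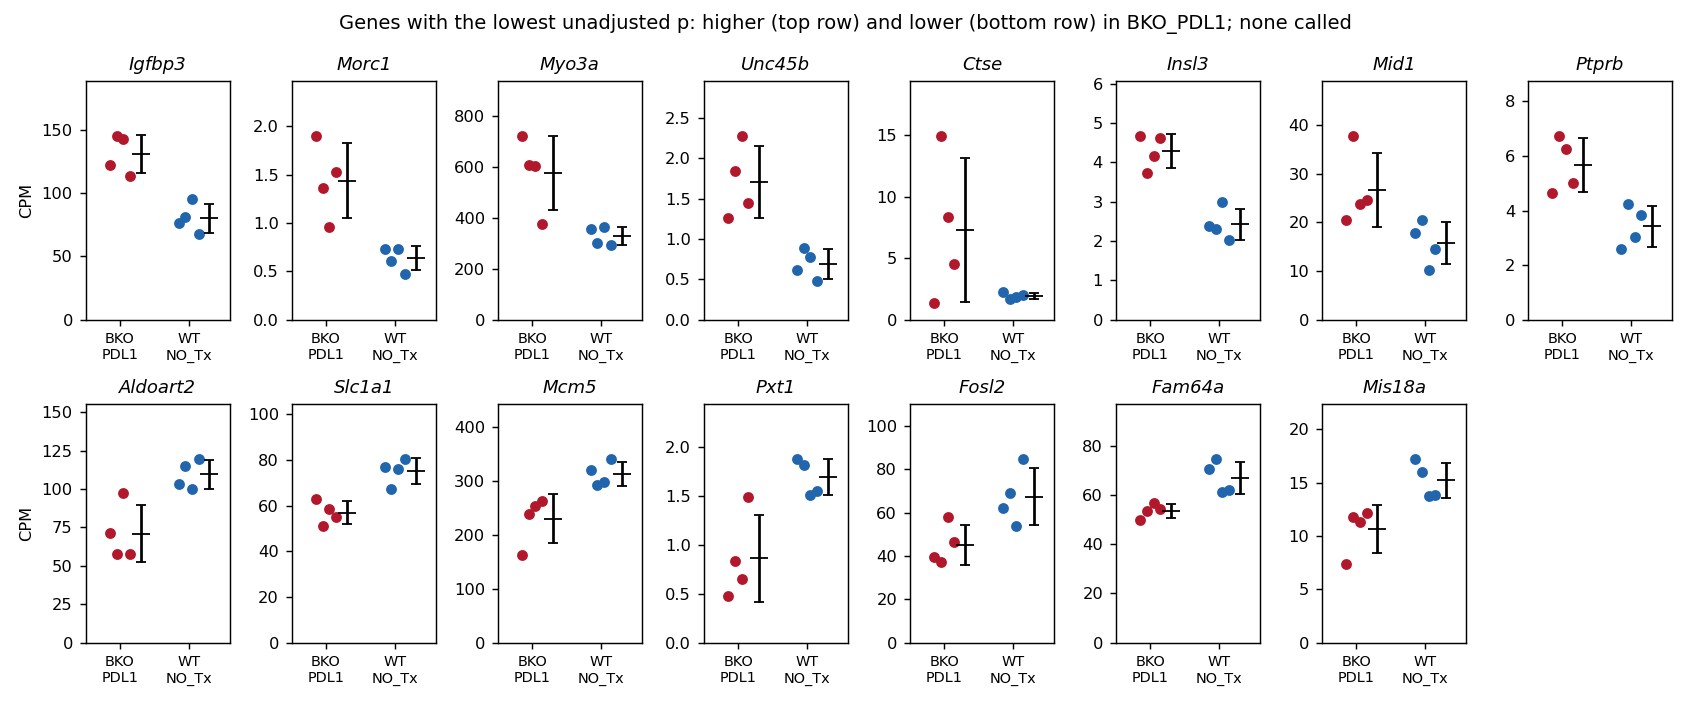
CPM of the 15 genes in each library, treated depleted (BKO_PDL1, red) left of untreated WT (WT_NO_Tx, blue), with the mean and SD of 4 libraries in black, all axes from 0. Of the 15 genes, Ctse and Fosl2 overlap between the groups, and Igfbp3 runs from 114 to 145 CPM in treated depleted against 68.1 to 95.5 CPM in untreated WT tumours.

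A gene below 1 CPM had the lowest p of all and was chosen after its values were seen. Cst13, a member of the cystatin family of protease inhibitors (chromosome 2, 148820081 to 148830410), had 2 counts in the treated depleted libraries together, against 111 in the untreated WT libraries. It was at 0, 0.0296, 0.0385 and 0 CPM in treated depleted libraries A to D and at 1.80, 1.07, 0.962 and 0.411 CPM in untreated WT libraries A to D, so every untreated WT library was above every treated depleted one. The pooled counts were 48.2-fold lower, with an exact interval of 13 to 403 that covers counting error only, and the adjusted p was 0.922. With the GC slope of the libraries as a covariate its adjusted p was 0.0075. The untreated depleted and treated WT tumours had 0.0873 ± 0.120 and 0.405 ± 0.328 CPM (SD, n = 4 each).

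Genes of the melanoma cells were held within narrow limits. Melanocyte and pigment genes summed to 21700, 23130, 22380 and 21340 CPM in treated depleted libraries A to D, against 24690, 21650, 23320 and 20180 CPM in untreated WT libraries A to D. The group ranges overlapped. Of 18 tested members of that list, such as the pigment enzymes and their regulator Mitf, 17 had an interval within 2-fold, and the list median was -0.11, beside -0.0048 over all genes. Kit, the receptor for stem cell factor, was at 8.13, 16.9, 12.4 and 12.9 CPM against 7.99, 9.58, 9.21 and 9.05 CPM in untreated WT libraries (log2 change 0.50, SE 0.22), and Ednrb, the endothelin B receptor, had a log2 change of 0.61 (SE 0.35). Neither passed the test.

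Cell cycle genes lay slightly below the untreated WT level as a list. Of 24 tested, 21 were below 0 and 3 above, with a median of -0.14 and a range of -0.45 to 0.09, beside 49.2% of all genes above 0. None passed the test, and all 24 intervals lay within 2-fold. Mcm5 is described above, and Aurkb, a kinase that corrects chromosome attachment, was at 69.3, 81.6, 84.1 and 83.9 CPM against 104, 104, 93.4 and 101 CPM in untreated WT libraries (log2 change -0.33, SE 0.13). At an unadjusted p under 0.05, 4 members were lower and 0 higher, beside 1.7% and 3.08% of all genes. Leaving out any 1 library kept the list median between -0.18 and -0.09.

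In other lists, intervals lay within 2-fold in 23 of 23 hypoxia and glycolysis genes (median -0.11), 30 of 31 respiratory chain genes (-0.06), 28 of 32 cytoplasmic ribosomal protein genes (-0.02), 16 of 17 heat shock chaperones (-0.07), 12 of 12 genes of the inner mitochondrial membrane scaffold (-0.11) and 18 of 19 genes of amino acid supply (-0.02). Eno1 and Hk2, enzymes of glycolysis, had log2 changes of -0.27 (SE 0.17) and -0.30 (SE 0.16). Slc38a2, a transporter of neutral amino acids, was at 189, 195, 194 and 165 CPM against 136, 137, 140 and 155 CPM in untreated WT libraries, with no overlap (log2 change 0.39, SE 0.13). Rps21 and Rps29, components of the small ribosomal subunit, had the lowest p of the ribosomal genes, and treated depleted library A was far above the other libraries in both. Rps21 was at 221, 59.0, 50.7 and 92.2 CPM against 57.5, 42.5, 40.6 and 35 CPM in untreated WT libraries, and Rps29 at 130, 39.5, 39.4 and 50.9 CPM against 42.5, 34.4, 36.2 and 31.0 CPM. Immediate early genes, which respond to acute signals and to handling of tissue, had 16 of 20 below 0 with a median of -0.20. Jund had a log2 change of -0.40 (SE 0.20) and Jun of -0.37 (SE 0.24).

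Further lists lay near the level of all genes. Chchd6 and Phb of the mitochondrial scaffold had log2 changes of -0.33 (SE 0.11) and -0.31 (SE 0.16), Atp5b and Ndufb7 of the respiratory chain -0.24 (SE 0.13) and -0.30 (SE 0.17), and the chaperone regulators Ahsa1 and Dnajb1 -0.29 (SE 0.17) and -0.16 (SE 0.16). Circadian clock genes had a median of 0.01 over 17 tested, with Per3 at 0.58 (SE 0.31, a span wholly shared with a second gene) and Arntl at 0.29 (SE 0.22). Targets of p53 had a median of 0.12 over 12, with Trp53inp1 at 0.69 (SE 0.39) and Gdf15 at 0.76 (SE 0.49). Subunits of Mediator, which links transcription factors to RNA polymerase, had a median of 0.08 over 12. Cdk8, its kinase, was at 304, 476, 447 and 690 CPM against 968, 760, 580 and 1136 CPM in untreated WT libraries (log2 change -0.85, SE 0.31), and the authors' log2 values gave it a difference of 0.04. None of these genes passed the test.

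Genes of the tumour stroma lay above the untreated WT level, without a gene that passed the test. All 21 tested genes of collagens and fibroblasts had a change above 0, with a median of 0.42 and a range of 0.01 to 0.96, and 7 had an interval within 2-fold. The list summed to 1568, 1992, 1747 and 2367 CPM in treated depleted libraries, against 1051, 1772, 1817 and 1778 CPM in untreated WT libraries. Library A of untreated WT was the lowest of the 8 and libraries A and C of the treated depleted group lay within the untreated WT range, and the list median was 0.23 without untreated WT library A, 0.26 without treated depleted library D and 0.67 without treated depleted library A or untreated WT library B. Pdgfra, a growth factor receptor of fibroblasts, was at 0.948, 1.19, 1.66 and 1.91 CPM against 0.497, 0.854, 1.05 and 0.570 CPM in untreated WT libraries (log2 change 0.96, SE 0.30), and Col4a1, a collagen of basement membranes, had a log2 change of 0.42 (SE 0.21). At an unadjusted p under 0.05, Pdgfra was the single member, 1 of 21 beside 3.08% of all genes.

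Genes of blood vessel endothelium had 16 of 17 above 0, a median of 0.36 and 3 at an unadjusted p under 0.05, where 3.08% of all genes tested were higher at that p. The member below 0 was Vwf, a clotting protein of endothelium, with 3478 counts in treated depleted libraries, against 4993 in untreated WT libraries (log2 change -0.52, SE 0.28). Cdh5 (VE-cadherin), the adhesion protein of endothelial junctions, was at 16.4, 37.0, 24.5 and 26.3 CPM against 15.3, 16.6, 20.3 and 14.7 CPM in untreated WT libraries (log2 change 0.65, SE 0.24). Apln, a peptide made by sprouting vessels, was at 16.4, 34.5, 25.7 and 32.1 CPM against 18, 17.4, 22.5 and 19.9 CPM (log2 change 0.49, SE 0.21). In both genes libraries B, C and D of the treated depleted group lay above all untreated WT libraries and library A did not. Without treated depleted library B, the highest, the list median was 0.18. Ptprb, described above, is a gene of the same cells outside the list.

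For genes of 4 other tissues, the summed levels of both groups overlapped. Skeletal muscle genes summed to 25.9 to 29.3 CPM in treated depleted and 23.9 to 26.5 CPM in untreated WT tumours, with a median change of 0.16 over 13 tested, Mylpf at -0.57 (SE 0.31) and Ttn at 0.49 (SE 0.33). Keratinocyte genes summed to 25.95 to 42.0 CPM against 30.8 to 32.6 CPM, with 3 of 13 tested, a median of -0.10, Flg at -0.10 (SE 0.18) and Trp63 at -0.18 (SE 0.34). Peripheral nerve genes had a median of 0.19 over 8, with Pmp22, a myelin protein, at 0.54 (SE 0.33). Adipocyte and fatty acid uptake genes had a median of 0.14 over 15. Plin4, a coat protein of lipid droplets, was at 5.21, 3.26, 1.81 and 3.36 CPM against 2.14, 1.82, 1.19 and 1.3 CPM in untreated WT libraries (log2 change 1.06, SE 0.40), and Fabp4, a fatty acid carrier, had a log2 change of 0.72 (SE 0.37).

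Blood content varied within both groups. Erythroid and haem genes summed to 492, 264, 287 and 1063 CPM in treated depleted libraries, against 2100, 484, 396 and 197 CPM in untreated WT libraries. Untreated WT library A had the most and library D the least of all 8. All 6 tested genes had a change below 0, with a median of -0.65, and the median was 0.44 without untreated WT library A and -1.36 without treated depleted library D. Hbb-b1, a beta globin chain, had a log2 change of -0.80 (SE 0.67) and Alas2, the erythroid enzyme of haem synthesis, one of -0.80 (SE 0.61, a span wholly shared with Apex2). The part that blood content had in other changes was not tested.

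Interferon response genes, the antiviral set that type I interferon induces, lay above the untreated WT level as a list. Of 26 tested, 23 had a change above 0, with a median of 0.48 and a range of -0.26 to 0.94, and 7 had an interval within 2-fold. The list summed to 426, 284, 212 and 361 CPM in treated depleted libraries, against 196, 206, 226 and 334 CPM in untreated WT libraries, and the ranges overlapped. Rsad2 (viperin), an antiviral enzyme, was at 19.6, 10.3, 10.2 and 15 CPM against 7.88, 7.65, 7.74 and 7.66 CPM in untreated WT libraries, which lay almost at 1 level (log2 change 0.83, SE 0.28). Irf9, the DNA-binding part of the interferon-activated complex ISGF3, was at 26.9, 17.0, 15.7 and 18.9 CPM against 13.7, 12.1, 14.6 and 16.4 CPM (log2 change 0.46, SE 0.17). At an unadjusted p under 0.05, 3 of 26 were higher and 0 lower, where 3.08% of all genes tested were higher and 1.7% lower, and none passed the test. Without treated depleted library A, which had the highest sum and the lowest depth, the median was 0.30, and without untreated WT library D it was 0.71.

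Interferon gamma targets varied widely between tumours of 1 group. Interferon-inducible GTPases, which defend cells against intracellular microbes, summed to 134, 98.0, 32 and 137 CPM in treated depleted libraries, against 31.9, 52.1, 43.8 and 346 CPM in untreated WT libraries. Untreated WT library D was far above all others, and treated depleted library C was near the lowest. The list median was -0.48 over 16 tested (12 below 0) and 1.56 without untreated WT library D. Ifi47 was at 6.16, 3.23, 2.19 and 6.60 CPM against 2.41, 2.56, 5.36 and 23.4 CPM (log2 change -0.91, SE 0.59, a span wholly shared with a second gene), and Gvin1 had a log2 change of 0.56 (SE 0.39).

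MHC class II genes followed the same tumours. They summed to 41.9, 48.6, 12.9 and 95.4 CPM in treated depleted libraries, against 17.0, 39.8, 29.4 and 127 CPM in untreated WT libraries. Library D was the highest in each group, and letters do not pair the libraries. All 7 tested members had a change below 0 with a median of -0.19, and the median was 0.84 without untreated WT library D, -0.84 without treated depleted library D and -0.54 without untreated WT library C. The chain H2-Eb1, a class II beta chain, was at 2.13, 6.37, 0.346 and 11.6 CPM against 2.03, 5.27, 1.51 and 18.3 CPM (log2 change -0.40, SE 0.89), and Ciita, the master regulator of the class, had a log2 change of -0.40 (SE 0.81). The median SE of the list, 0.81, was several times that of all genes, 0.227, so only 1 of 7 intervals lay within 2-fold. MHC class I and antigen processing genes had 12 of 18 above 0 with a median of 0.04, which ranged from -0.11 without treated depleted library D to 0.33 without untreated WT library D. B2m, the light chain of class I, was at 334, 147, 118 and 196 CPM against 130, 129, 180 and 167 CPM, its span being wholly shared with Patl2, and Psme2, an activator of the proteasome, was at 9.16, 4.65, 4.12 and 6.03 CPM against 4.01, 3.99, 4.40 and 4.93 CPM. Their log2 changes were 0.39 (SE 0.25) and 0.45 (SE 0.23).

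**Figure D3:**
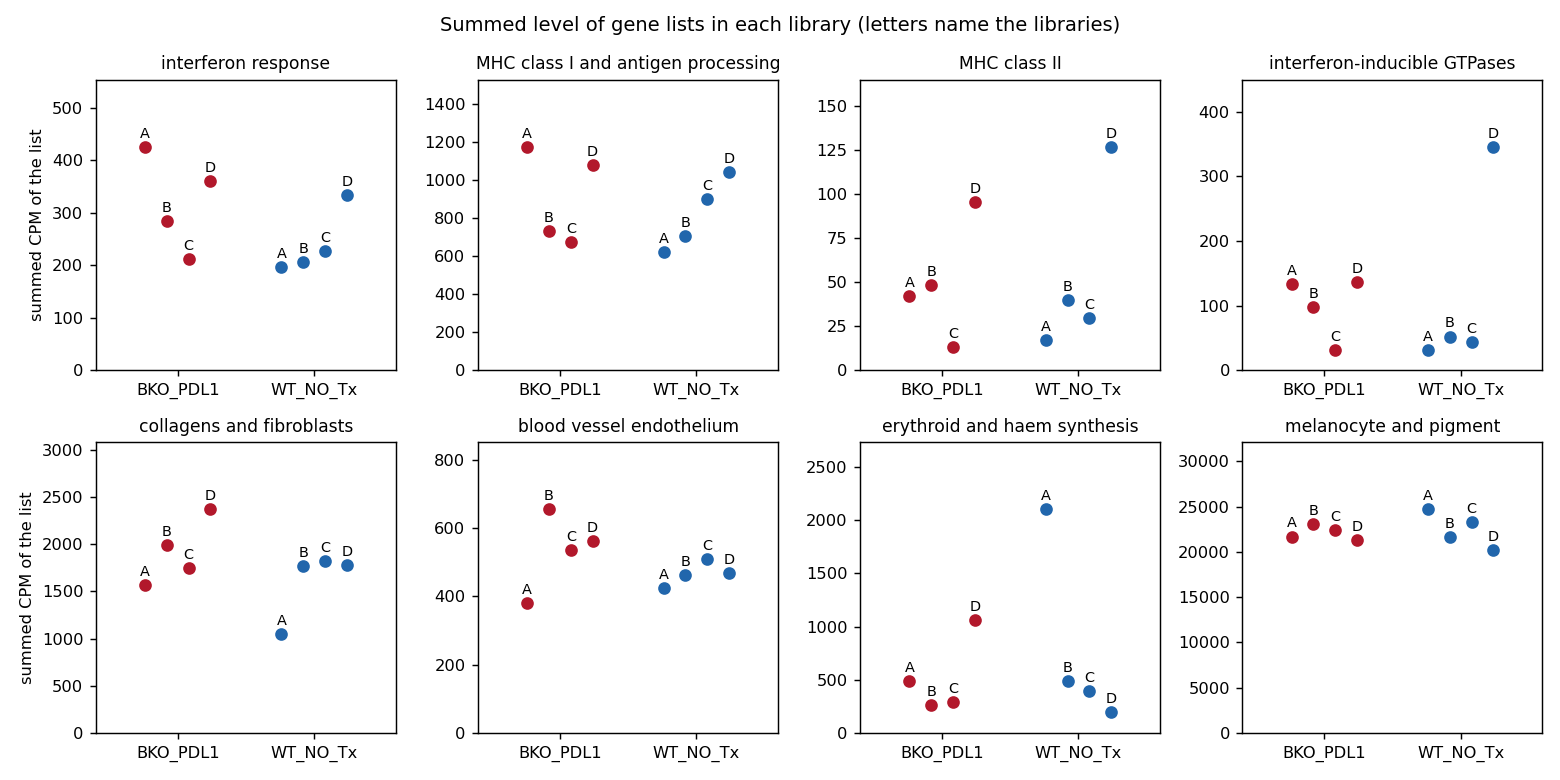
Summed CPM of 8 gene lists in each library, treated depleted (BKO_PDL1) left of untreated WT (WT_NO_Tx), axes from 0, with a letter for each library. Interferon-inducible GTPases reach 346 CPM in untreated WT library D and 31.9 to 137 CPM in the other 7 libraries, while melanocyte genes lie between 20180 and 24690 CPM in all 8.

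T cell genes had few reads in either group. Cd8a had 13 counts in all treated depleted libraries together and 6 in untreated WT libraries, and in the same order Cd3e had 17 and 19, Cd4 32 and 26, Ifng 4 and 4, and Gzmb 6 and 23. Of 20 genes on the T cell list 8 passed the filter on counts, a minority that includes genes other cells also use. Their median was 0.48 with 7 of 8 above 0. Medians were 0.24 in the fit of the 8 libraries alone (18555 genes tested) and 0.72 in the authors' log2 values (18860 genes tested). Both fits tested other sets of genes than the main fit, so their medians need not cover the same members. The 12 members that did not pass the filter had 152 counts together in treated depleted libraries, against 153 in untreated WT libraries. Tcf7, a transcription factor of T cells that shares 56% of its span, had a log2 change of -0.44 (SE 0.19). Of 16 cytotoxic and NK cell genes 4 passed the filter. Eomes and Tbx21, the T-box factors of cytotoxic cells, had 79 and 40 counts in treated depleted libraries, against 41 and 20 in untreated WT libraries, with log2 changes of 1.16 (SE 0.49) and 1.15 (SE 0.52). The remaining tested members, Gzmk and Ctsw, had log2 changes of 0.01 (SE 0.22) and -0.12 (SE 0.54). Gzmk had 2354 and 2416 counts, far more than Gzmb, and the source of its reads was not tested. The median of the 4 was 0.58. In the fit of the 8 libraries alone, which filtered genes anew, the list median was 0.03 and need not cover the same 4. Of the untested members, the receptors Klrk1 and Klrb1c had 4 and 5 counts in treated depleted libraries, against 16 and 14 in untreated WT libraries. None of these passed the test, and at these counts smaller changes were not detectable.

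Receptors and ligands that restrain T cells had a median of 0.11 over 10 tested. Cd274 itself, the target of the antibody, was at 11.8, 6.90, 6.89 and 5.46 CPM in treated depleted libraries, against 4.01, 4.63, 7.74 and 7.37 CPM in untreated WT libraries. The ranges overlapped and the log2 change was 0.37 (SE 0.27, 95% interval -0.20 to 0.94). Lag3, a receptor that binds MHC class II, was at 0.553, 0.533, 0.693 and 0.420 CPM against 0.268, 0.285, 0.412 and 0.348 CPM, with no overlap and a log2 change of 0.74 (SE 0.51). Vtcn1 (B7-H4), a ligand of the same family as PD-L1, was at 2.21, 2.34, 2.42 and 1.53 CPM against 3.21, 2.81, 3.94 and 3.13 CPM in untreated WT libraries, also without overlap (log2 change -0.62, SE 0.21). Of the 10 tested genes of the list, 2 did not overlap, beside 5.67% of all genes tested. None passed the test.

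A list of 14 genes that the study names had 8 with enough counts, and since the study took some of them from this transcriptome, the list is not independent evidence of a direction. All 8 had a change above 0 with a median of 0.32, which was 0.10 without treated depleted library A. The study's own contrasts were other ones, since its transcriptome compared depleted with WT mice under the same treatment. It measured the products of Ccl5, Ifng and Vegfa as protein after antibody plus a TLR agonist, and Cxcl13 in lymph nodes and patient tumours. Beside Cd274 and Lag3, the log2 changes were 0.37 for Ido2 (SE 0.42), a relative of the tryptophan-degrading enzyme Ido1, 0.37 for the chemokine Ccl5 (SE 0.45), 0.27 for Cd40 (SE 0.49), the receptor through which T cells help B cells, 0.20 for the inflammasome gene Nlrp10 (SE 0.38), 0.10 for Vegfa (SE 0.20), the growth factor of blood vessels, and 0.04 for Foxp3 (SE 0.17), the factor of regulatory T cells. The Foxp3 span lies wholly within that of Ppp1r3f, at 13 to 18.5 CPM in treated depleted and 12.6 to 16.1 CPM in untreated WT tumours, so its level cannot be assigned to it alone. Ctla4, an inhibitory receptor that the study also names and that is outside this list, had a log2 change of -0.18 (SE 0.18). Its counts were 19537 in treated depleted and 24381 in untreated WT libraries, where the T cell gene Cd3e had 17 and 19. The source of the Ctla4 reads was not tested. The other 6 genes of the list had too few counts for the test, and for 5 of them the sums over treated depleted and over untreated WT libraries were 12 and 8 for Tigit, 20 and 8 for Il1rl1, 2 and 0 for Cxcl13, 4 and 4 for Ifng and 13 and 6 for Cd8a.

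None of the 19 macrophage and 3 neutrophil genes tested passed the test. Macrophage and monocyte genes had 9 of 19 above 0 with a median of -0.01, and the list summed to 904 to 1091 CPM in treated depleted and 1031 to 1068 CPM in untreated WT tumours. Mertk, a receptor for dying cells, had a log2 change of 0.37 (SE 0.22) and Cd163, a haemoglobin scavenger receptor, one of 1.04 (SE 0.79). Neutrophil genes were close to absent, with 3 of 12 tested. Ltf (lactoferrin) was at 0.237, 0.118, 0.0770 and 6.41 CPM against 0, 0, 0.412 and 0.0633 CPM in untreated WT libraries, so 1 treated depleted tumour held nearly all of it (log2 change 3.98, SE 1.25). The same library, D, held 34 of the 37 counts of Krt14 and 21 of the 28 of Krt5, keratins of the basal layer of epithelia, in the treated depleted group. Untreated WT library C held 9 of the 11 counts of Ltf in its group, 10 of the 11 of Krt14 and 5 of the 8 of Krt5. The part of other cells in the Ltf value was not tested. Mmp9, a gelatinase, had a log2 change of 1.45 (SE 0.66). Without treated depleted library D the list median was 0.26, against 1.45 with it. S100a8 and S100a9, the most abundant proteins of neutrophils, had 7 and 11 counts in treated depleted and 15 and 8 in untreated WT libraries.

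The remaining immune lists had medians between 0.01 and 0.28. Chemokines had 11 of 15 above 0 (median 0.28, and -0.21 without treated depleted library D), with Ccl2 at 0.49 (SE 0.30, a span wholly shared) and Ccl27a at 0.36 (SE 0.27). Dendritic cell genes had a median of 0.18 over 8 (0.06 without treated depleted library B and 0.35 without untreated WT library D), with Ccr7 at 0.93 (SE 0.61) and Fscn1 at -0.36 (SE 0.26). Innate sensors had a median of 0.16 over 17 (0.01 without untreated WT library C and 0.04 without treated depleted library A). Naip2, a sensor of bacterial proteins, was at 2.45, 1.81, 2.46 and 2.18 CPM against 0.956, 1.6, 1.42 and 0.601 CPM in untreated WT libraries (log2 change 0.96, SE 0.34). Pycard (ASC), the adaptor of inflammasomes, was at 25.2, 24.4, 25.9 and 26.8 CPM against 35.5, 27.8, 33.0 and 33.3 CPM (log2 change -0.34, SE 0.16). Both genes separated the groups without overlap and in opposite directions, but they were picked as the 2 of the list with the lowest p. Of the 17 tested, 3 did not overlap, beside 5.67% of all genes tested. Interleukin 1 family genes had a median of 0.16 over 9, with Il1r1 at 0.68 (SE 0.34) and Il33 at 0.68 (SE 0.38), regulatory T cell genes 0.10 over 8, with Il10 at 1.25 (SE 0.61) and Nt5e at 0.49 (SE 0.30), and tryptophan breakdown genes 0.01 over 5, with Kynu at -0.46 (SE 0.31) and Kmo at -0.37 (SE 0.26). Plasma cell genes had 3 of 14 tested with a median of 0.02, among them Prdm1, the factor that drives plasma cell formation, at 0.90 (SE 0.34), and Sdc1, which melanoma cells can also make, at -0.12 (SE 0.18).

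**Figure D4:**
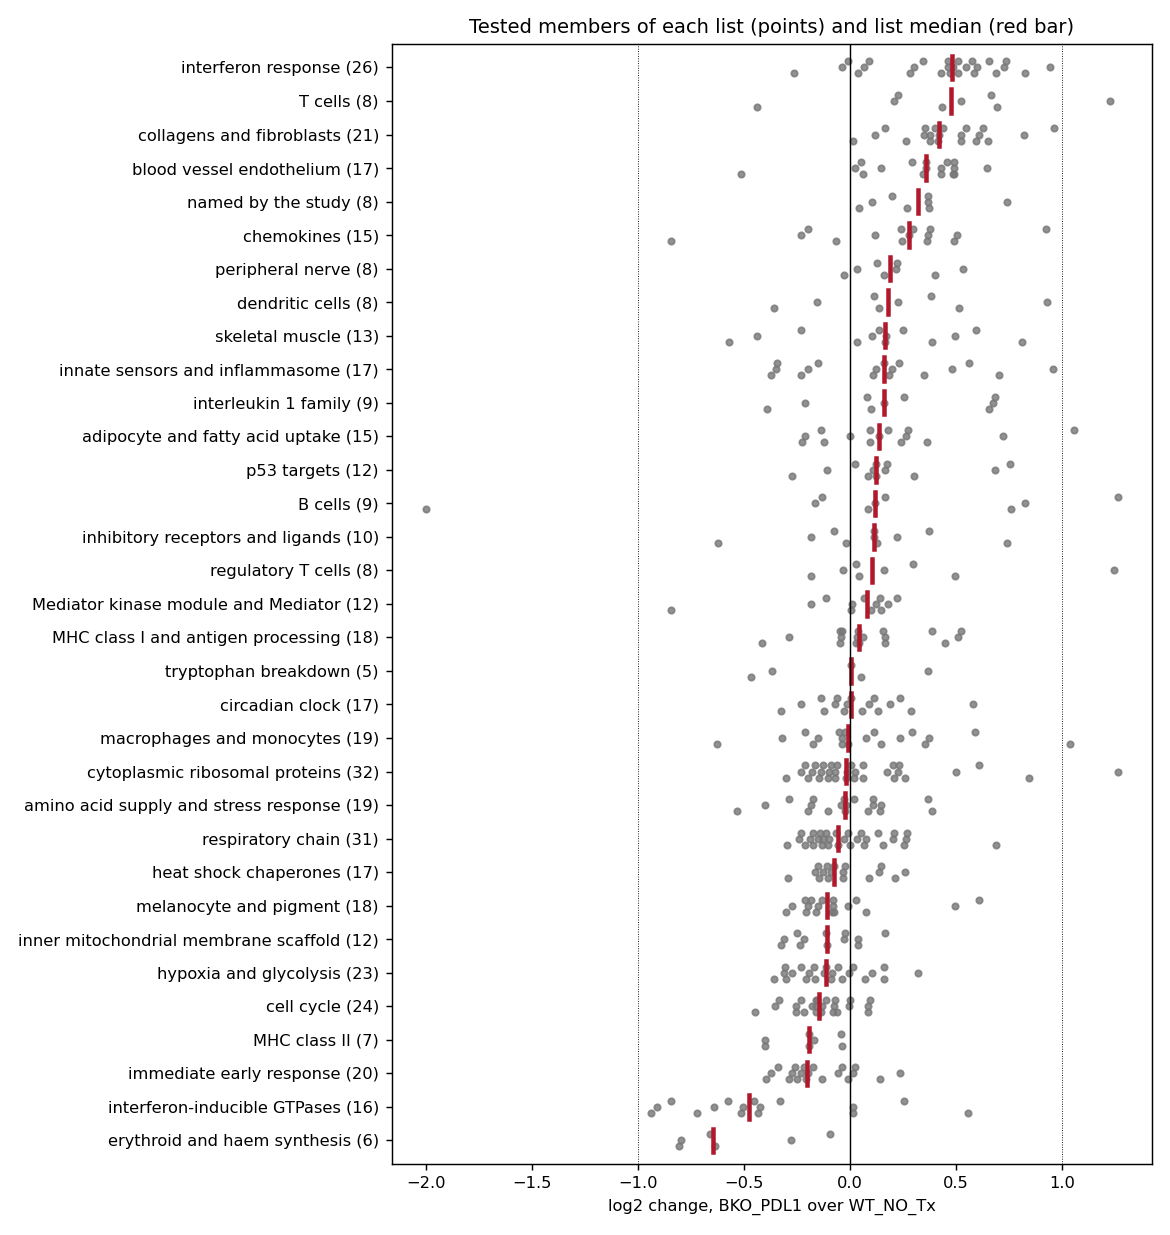
Log2 change of treated depleted (BKO_PDL1) over untreated WT (WT_NO_Tx) tumours for the tested members of each list with at least 5 of them (points, number in brackets), with the list median in red and 2-fold as dotted lines. Medians run from -0.65 for erythroid genes to 0.48 for interferon response genes, and no point passed the test.

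The place of the treated depleted tumours was then set against the tumours that had received 1 perturbation each. The interaction contrast takes the sum of treated depleted and untreated WT log2 levels and subtracts the sum of untreated depleted and treated WT levels, and it uses a different combination of the same libraries from the joint comparison. It called 1474 of 19340 genes (7.62%), of which 918 were above and 556 below 0. In 769 of the 918 and 480 of the 556 the interval of the joint change was within 2-fold, beside 76.5% of all genes.

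Stoml2, a scaffold protein of the inner mitochondrial membrane, had the lowest adjusted p of the listed genes (0.00134). It was at 42.0 ± 2.2 CPM in treated depleted, 27.2 ± 4.3 in untreated depleted, 26.6 ± 3.5 in treated WT and 49.4 ± 2.2 CPM in untreated WT tumours (SD, n = 4 each), with 17.7% of its span shared. The hypoxia and glycolysis list had 4 of 23 called above 0. Of all 19340 genes tested, 918 were called above 0 and 556 below, 7.62% in either direction. Slc16a3, which exports lactate, was at 502 ± 126 CPM in treated depleted, 310 ± 112 in untreated depleted, 304 ± 59.9 in treated WT and 642 ± 90.1 CPM in untreated WT tumours, and Pfkl, an enzyme of glycolysis, had a log2 interaction of 1.10 (SE 0.24). Cytoplasmic ribosomal proteins had 9 of 32 called, all above 0, such as Rpl28 at 91.2 ± 19.97, 65.3 ± 20.2, 44.5 ± 9.4 and 89.6 ± 11 CPM in treated depleted, untreated depleted, treated WT and untreated WT tumours. The joint log2 change of Rpl28 was 0.02 (95% interval -0.42 to 0.47).

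Cell cycle genes were called in both directions (4 above and 1 below 0 of 24 tested), where 918 and 556 of all 19340 genes were. Tyms, the enzyme that makes thymidylate, was at 52.4 ± 2.1 CPM in treated depleted, 40.6 ± 3.6 in untreated depleted, 41.5 ± 8.5 in treated WT and 60.9 ± 5.1 CPM in untreated WT tumours. Of macrophage genes only Apoe, the lipid carrier that melanoma cells can also make, was called among 19 tested, at 866 ± 103, 644 ± 239, 514 ± 151 and 1002 ± 69.6 CPM in the same order of groups. Lpl and Cd36, of the adipocyte and fatty acid uptake list, were called below 0. Lpl was at 2.44 ± 0.85 CPM in treated depleted, 3.25 ± 0.83 in untreated depleted, 6.01 ± 0.80 in treated WT and 2.24 ± 0.34 CPM in untreated WT tumours, so the treated WT group stood highest. Hba-a1, an alpha globin chain, was at 178 ± 141 CPM in treated depleted, 38.7 ± 17.2 in untreated depleted, 58.5 ± 27.2 in treated WT and 277 ± 319 CPM in untreated WT tumours. MHC class II genes had a median log2 interaction of 2.20 over 7 and interferon-inducible GTPases of 2.52 over 16. None was called in either list, beside 7.62% of all genes tested.

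**Figure D5:**
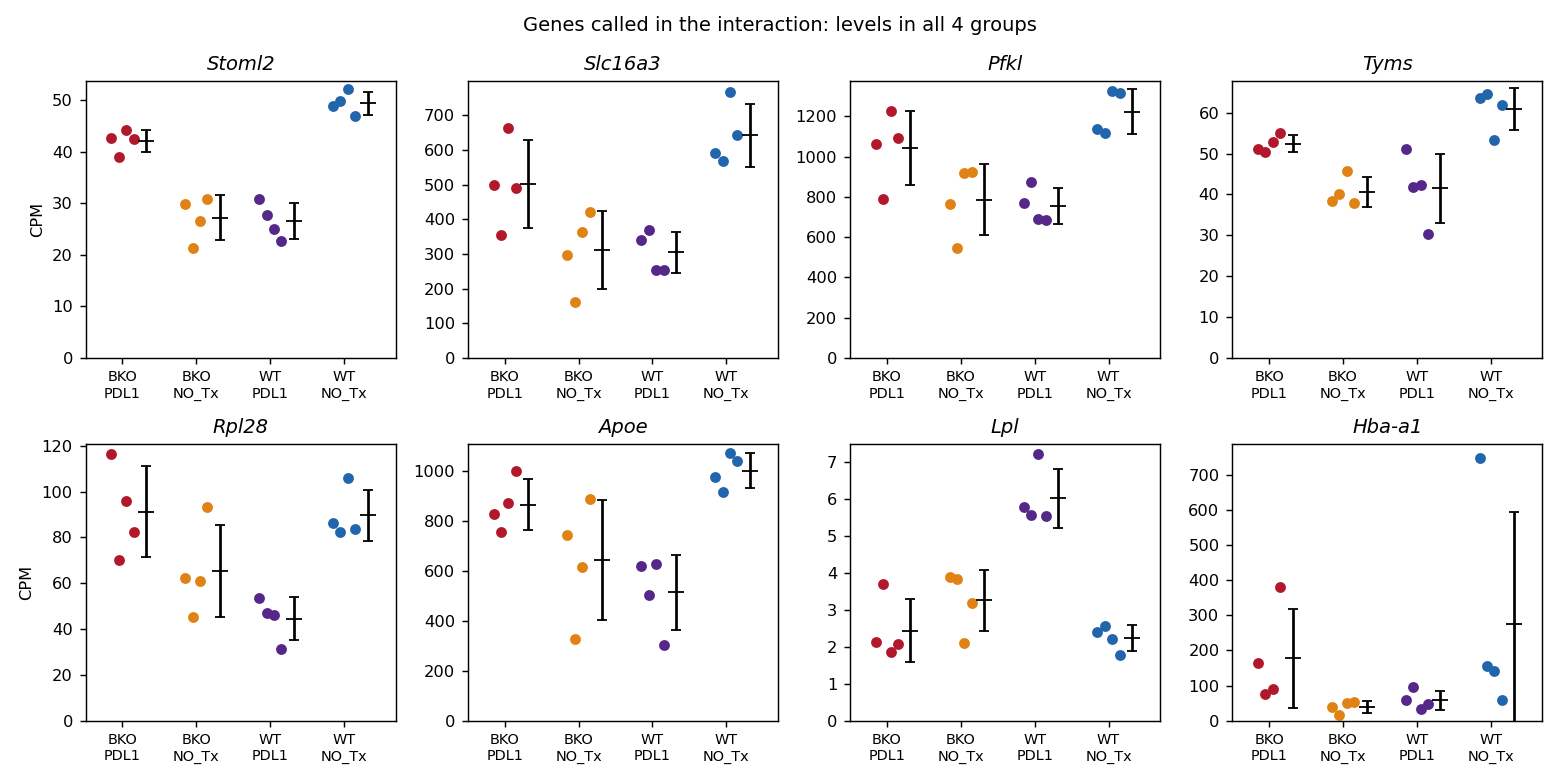
CPM of 8 genes called in the interaction in each library of treated depleted (BKO_PDL1), untreated depleted (BKO_NO_Tx), treated WT (WT_PDL1) and untreated WT (WT_NO_Tx) tumours, with mean and SD of 4 libraries in black and axes from 0. The lower SD bar of Hba-a1 in untreated WT tumours ends at the axis, and Stoml2 is at 42.0 CPM in treated depleted and 49.4 CPM in untreated WT tumours, above 27.2 and 26.6 CPM in tumours with 1 perturbation.

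Measures of the libraries were set beside the interaction, and their part in it was not tested beyond the values that follow. All 8 libraries of the joint comparison lay between -30.5 and -16.4 on the first principal component (36.5% of the variance), the treated WT libraries between 7.81 and 64.0 and the untreated depleted libraries between -37.6 and 101.6. The GC slope of a library, the slope of its log2 CPM on the GC content of genes per 10 percentage points, was 0.109 ± 0.123 in treated depleted, -0.054 ± 0.484 in untreated depleted, -0.243 ± 0.158 in treated WT and 0.188 ± 0.048 in untreated WT libraries (SD, n = 4 each). Untreated depleted libraries A and D, at 0.286 and 0.321, lay above all 8 libraries of the joint comparison, and libraries B and C, at -0.720 and -0.104, lay below them. Between treated depleted and untreated WT libraries the GC slope differed by -0.079 (exact permutation p = 0.314). Median GC content was 51.2% in interaction genes above 0 and 44.2% in those below 0, beside 46.4% in all genes. A fit that took account of GC slope called 174 genes and shared 110 with the 1474, and leaving out 1 library gave between 289 (without untreated WT library C) and 3932 (without untreated depleted library D). The joint comparison called 0 genes in each of these leave-one-out fits.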

How the data were processed

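RNA of 16 B16 tumours, 4 per group, was depleted of ribosomal RNA and made into libraries with an Ion Total RNA-Seq kit by the authors, and sequenced by a service laboratory. The deposited counts per gene of 38087 genes (mm10) were used as they stand. Genes are listed with their whole spans, so introns may contribute, and 14522 spans (38.1%) overlap another gene. Aligner and counter: not given in the sources used here. DESeq is named in the submitters' processing notes. Columns carry letters and labels carry numbers, so columns were mapped to groups. The deposited percent GC column gave the GC content, and the authors' normalized log2 values served as an alternative. Tables of the authors' own fold changes, p-values and gene sets were not used, nor were 32 further per-library columns of the count table (average coverage and a column marked low).

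Counts were fitted over all 16 libraries with edgeR 4.0.16 (R 4.3.3; filterByExpr, TMM factors, quasi-likelihood test, Benjamini-Hochberg adjustment), with limma 3.58.1 and DESeq2 1.42.0 as alternatives. The joint contrast is treated depleted minus untreated WT. CPM of tested genes use TMM factors, and summed CPM of lists and Igkc the library totals. Labels do not say more of replicates than that each is a tumour. Single levels were compared by 2-sided exact permutation tests over 70 splits, and floors of 3 counts cover counting error only. Members and gene lists were chosen with earlier results of these data known. Since fewer than 5 genes were called, named genes are the 8 protein-coding genes of at least 1 CPM with the lowest p in each direction, with the tested genes named by the study, called list members and the 2 members of each list with the lowest p. Igkc, Cst13 and others outside this rule were chosen after their values were seen or as label checks. Alternatives were other normalization, filters, tests, the 8 libraries alone, GC slope, a replicate block, genes without overlap and leaving out each library. Tests were checked on simulated counts. No gene sequences were used here, and some genes that meet the rule are not reported here.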

Additional observations from a re-analysis of the deposited data

Results flagged for a closer look

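Of 268 sets of 4 values tested with Dixon's ratio (the gap of an end value to its neighbour over the range), 19 passed the 95% limit, and chance passes about 1 in 20. Among treated depleted libraries these were Ltf in library D (ratio 0.975), Aurkb lowest in A (0.831), Rps29 in A (0.872), and Fabp4 (0.844) and Ednrb (0.869) in B. Among untreated WT libraries, library A was highest in Hbb-b1 (0.851), Flg (0.854), Trp63 (0.909) and summed erythroid genes (0.849) and lowest in summed collagen genes (0.941). Library B was highest in Gdf15 (0.952). Library C was highest in Ltf (0.847), Ighm (0.947) and Igkc counts (0.867) and lowest in Foxp3 (0.845). Library D was highest in Ifi47 (0.859), Gvin1 (0.842), Ciita (0.866) and summed GTPases (0.935).

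The interaction test of the main fit called 1474 genes, for a change with the antibody that differed between depleted and WT tumours. The number depended on the fit, with 174 called with the GC slope as a covariate (110 of them shared), 331 in the authors' log2 values and 289 to 3932 when 1 library was left out. The values that follow are those of the main fit. Of the named genes, the log2 interaction was above 0 for Cdk8 (2.34), Tcf7 (0.989), Stoml2 (1.52), Tyms (0.923), Slc16a3 (1.77), Slc3a2 (0.681), Pfkl (1.10), Ier2 (1.41), Hba-a2 (4.39), Hba-a1 (4.44), H2-T23 (1.68), Apoe (1.39), Cdc20 (1.18), Bag3 (1.05), Nefm (2.04), Ndufs7 (1.58), Rpl11 (1.28), Dusp1 (1.29), Rpl28 (1.49), Socs1 (2.90) and Ndufa4 (1.18). It was below 0 for Slc1a1 (-0.943), Naip2 (-1.86), Cd36 (-1.68), Ccng1 (-1.69), Chchd3 (-0.732) and Lpl (-1.82).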

How the results depend on the processing

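The joint comparison called 0 genes under each alternative run, apart from 1 gene with the GC slope as a covariate and 1 gene in the authors' log2 values. The interaction called 3262 genes with DESeq2, 945 without a filter on low counts, 174 with the GC slope, 331 in the authors' log2 values, 689 among genes without overlap, and 289 to 3932 when 1 library was left out. Letters do not pair the libraries (r of same-letter deviations -0.355 to 0.341 over 24 pairs), and with the replicate block the joint comparison called 0 and the interaction 587 genes. Without 2 libraries apart on the first component, an alternative chosen after seeing the data, the counts were 0 and 1037. In the authors' log2 values the joint change turned for Myo3a (-0.36), Ctse (-1.19), Slc1a1 (0.50), Cdk8 (0.043), Il10 (-0.052), Kmo (0.56), Cd40 (-0.060), Flg (0.26) and Ciita (0.86), and the interaction for Cdk8 (-0.10). Ciita also turned with limma-voom (0.27) and the block (0.090). Leaving out 1 library gave ranges across 0 for Ifi47 (-1.22 to 0.39), Alas2 (-1.40 to 0.32), Hbb-b1 (-1.52 to 0.58), Cd40 (-0.025 to 0.66), Flg (-0.29 to 0.015), Trp63 (-0.34 to 0.14), Vegfa (-0.034 to 0.19), Ciita (-0.84 to 1.49), H2-Eb1 (-1.18 to 0.81) and Foxp3 (-0.053 to 0.13). The Igkc difference ranged from -0.532 to -0.0942 CPM, with an exact permutation p of 0.286 when a treated depleted library was left out. The causes were not tested.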
